A study of Drosophila melanogaster with 4 samples.

Results

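The regions described here are the H3K4me1 peaks on the euchromatin of chromosome arm 2L in Drosophila melanogaster S2-DRSC cells. Members were the peaks on 2L whose midpoint lay below base 21500000 of FlyBase release 5, which made 1198 of the 11173 peaks in the list, or 10.7%. The list came from chromatin immunoprecipitation followed by sequencing (ChIP-seq), with 2 H3K4me1 ChIP libraries and 2 input DNA libraries. All 4 libraries are labelled as the cell line S2-DRSC, an established male line from late embryonic stages. The ChIP used an affinity-purified rabbit polyclonal antibody, and input DNA is sheared chromatin that was not precipitated. No genotype difference or treatment is labelled, and everything described holds for 1 cell line. The 1 peak list carries no value per library, so no test between groups was possible, depth was not analysed here, and each spread given is over blocks of the arm or over peaks.

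H3K4me1 is histone H3 with a single methyl group on lysine 4. In flies the mark is written mainly by the methyltransferase Trr at enhancers, and it also flanks the starts of active genes, where trimethylation of the same lysine takes the centre. Arm 2L runs from its telomere, at base 1, to pericentromeric heterochromatin at the other end. The reference table at hand is on another build than the peaks, so no peak is assigned to a gene, no sequence is printed and gene markers of the line were not analysed here.

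The 1198 peaks of the 2L euchromatin amounted to 55.7 peaks per Mb, and mean coverage of its 100-kb blocks was 5.91% ± 7.02 (SD, n = 215 blocks). Arms 3L, 3R and X were measured in the same way, each without the 1.5 Mb nearest its centromere. On these arms the 1.5 Mb were counted from the called peak nearest the centromere, so their lengths depend on where peaks were called. Arms 3L, 3R and X held 1610, 1988 and 944 peaks, or 70.1, 75.4 and 45.1 per Mb. Block coverage was 7.70% ± 9.34 on 3L (SD, n = 229 blocks), 8.28% ± 8.32 on 3R (SD, n = 263 blocks) and 5.32% ± 8.20 on X (SD, n = 209 blocks). The mean of 2L thus lay between that of X and those of 3L and 3R, with block spreads wider than the distances between the means. The median block showed the same order, with 3.94% on 2L, 4.84% on 3L, 6.37% on 3R and 1.34% on X.

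Coverage of 2L was spread unevenly over its length. No peak base was found in 50 of the 215 blocks, or 23.3%, against 15.3% of blocks on 3L, 14.1% on 3R and 34.9% on X. At the other extreme, 8 blocks of 2L, or 3.72%, were covered over 20%, against 10.9% of blocks on 3L, 9.13% on 3R and 9.57% on X. The densest block of 2L reached 35.2%, against 43.2% on 3L, 48.1% on 3R and 41.2% on X. On 2L the 33 most covered blocks, 15.3% of all, held 50% of the covered bases. The 22 most covered held 38.2%, against 39.5% for the 23 most covered on 3L, 33.1% for 27 on 3R and 49.3% for 21 on X. Blocks next to each other were only loosely alike, with a Pearson correlation of 0.22 over the 2L blocks at 1 block of distance and 0.27 at 5 blocks. At 1 block it was 0.38 on 3L, 0.16 on 3R and 0.52 on X, and at 5 blocks 0.19, 0.03 and 0.095. These correlations are a description, since all blocks come from the same libraries.

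**Figure D1:**
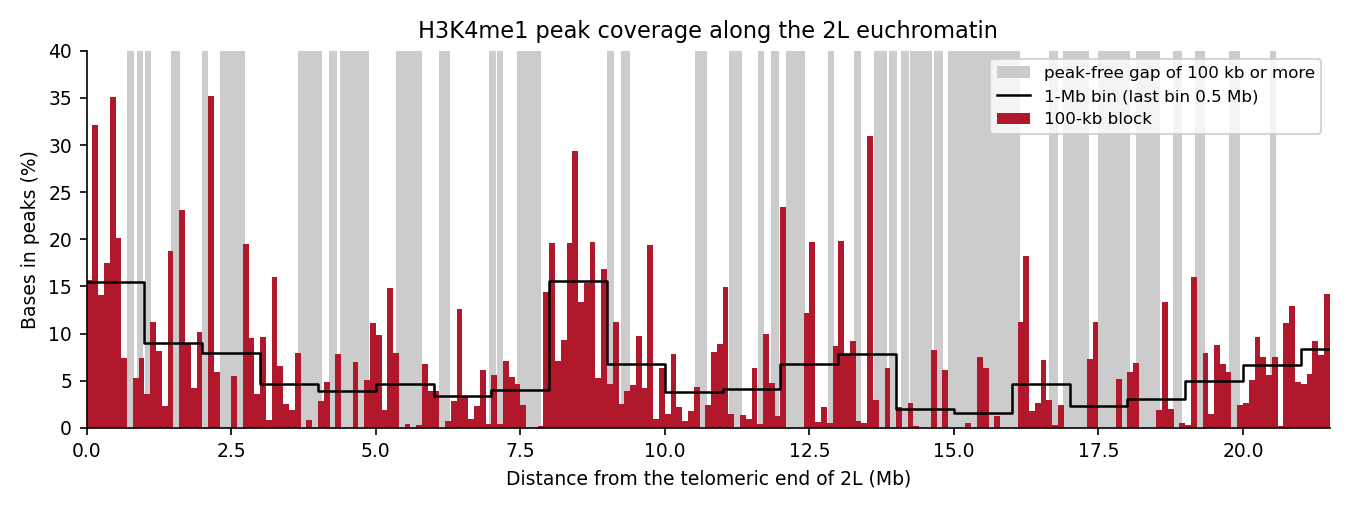
Share of bases in H3K4me1 peaks (percent) by distance from the telomeric end of 2L (Mb), in 100-kb blocks (bars) and 1-Mb bins (black line), with the 48 peak-free gaps of 100 kb or more in grey. The bars are high in the first Mb and between 8 and 9 Mb, and grey fills most of the stretch between 14 and 16 Mb.

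The end nearest the telomere was densely marked. Its 3 Mb held 262 peaks, or 87.3 per Mb, and were covered to 10.8% ± 10.4 (SD, n = 30 blocks), against 5.12% ± 5.98 for the rest of the euchromatin (SD, n = 185 blocks, 936 peaks, 50.6 per Mb). The distal end made up 13.95% of the length and 21.9% of the peaks. Density fell stepwise inside it. The first Mb held 102 peaks on 15.5% of its bases, the next held 92 peaks on 9.02%, and the one after that held 68 peaks on 7.93%. From 3 to 8 Mb each 1-Mb bin held between 30 and 43 peaks. Among the 5 most covered 100-kb blocks of 2L, those from 2100 to 2200 kb (35.2%), from 400 to 500 kb (35.1%) and from 100 to 200 kb (32.2%) lay in the distal 3 Mb.

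Distal peaks of 2L were only slightly different one by one. Their median width was 610.5 bases, against 538 bases in the rest, and the median gap to the next peak was 1207.5 bases, against 1576 bases. The median score percentile, the rank of the authors' score among the 5740 peaks of the 4 arms used here, was 48.6, against 45.6. The 3 peaks nearest the telomere differed widely. The first, from 121 to 5590, was 5470 bases wide with a score of 48.3. The next, from 7584 to 7933, was 350 bases wide with a score of 9.07. The one after it, from 47521 to 52434, was 4914 bases wide with a score of 146.

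Over 3 Mb, mean coverage was higher at the telomeric end than in the rest on the other arms too, but their first Mb differed. It held 102 peaks on 15.5% of its bases on 2L, against 177 peaks on 23.8% on 3L, 56 peaks on 9.51% on 3R and 32 peaks on 5.35% on X. On 3R and X the bin from 1 to 2 Mb was denser, with 135 and 141 peaks. The distal 3 Mb minus the rest was 5.69 percentage points of block coverage on 2L, against 10.3 points on 3L, 3.76 on 3R and 5.75 on X. As a ratio of means, distal coverage over that of the rest was 2.11 on 2L, against 2.61 on 3L, 1.48 on 3R and 2.28 on X. The value of 2L lay inside the range of the other arms on both scales. In points, the size depended on the window, since on 2L the difference was 10.0 for the distal 1 Mb and 2.96 for 5 Mb. Among the highest-scoring 25% of the list it was 2.97 points. Coverage of all of 2L was lower in that list too, at 2.37% against 5.91%. The smaller difference in points does not by itself show a weaker distal excess. On 2L 6 of the 30 distal blocks were empty, against 0 on 3L, 0 on 3R and 5 on X. In the rest of the arm 44 blocks, or 23.8%, were empty on 2L, against 17.6% on 3L, 15.9% on 3R and 38.0% on X. On 3R distances were counted from its last peak, since that arm has its telomere at the high coordinates.

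**Figure D2:**
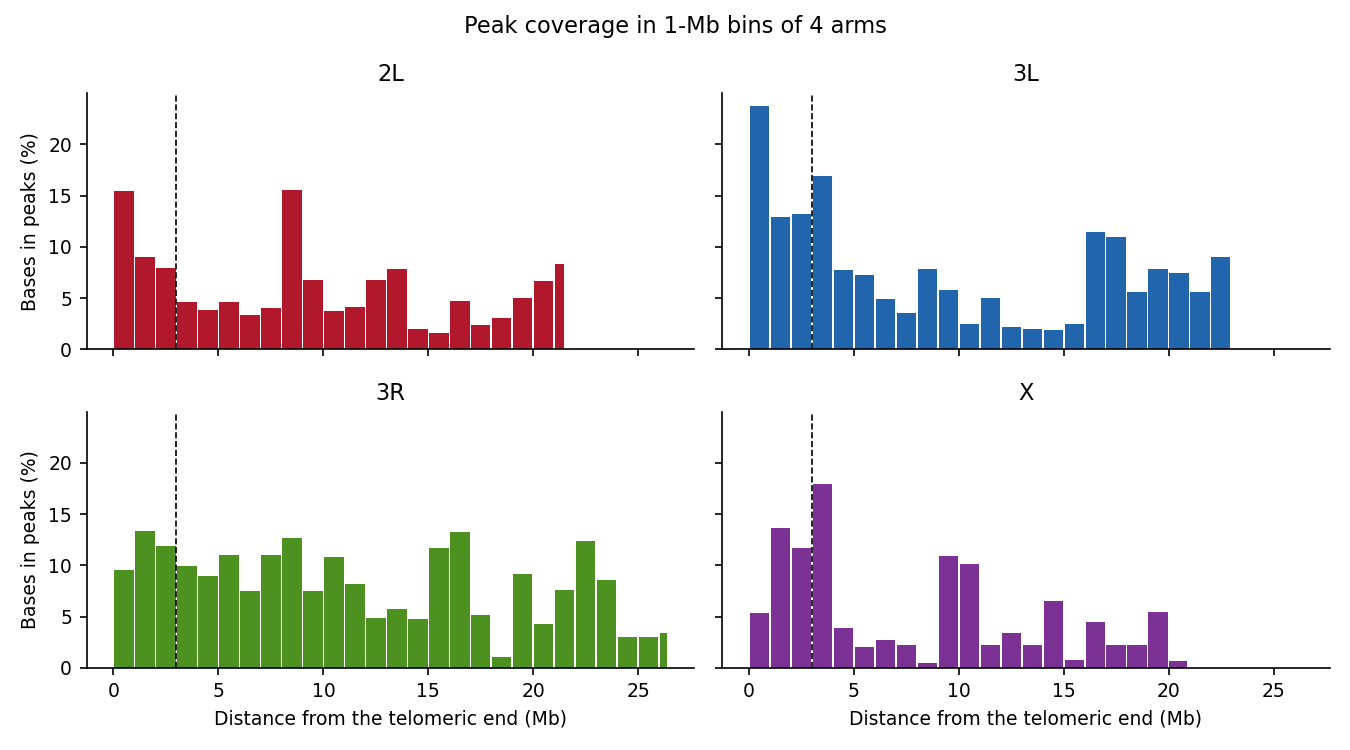
Share of bases in peaks (percent) in 1-Mb bins by distance from the telomeric end (Mb) on 2L, 3L, 3R and X, each without the part nearest the centromere. The dashed line marks 3 Mb. On 2L the tallest bins are the first (15.5%) and that from 8 to 9 Mb (15.6%), and on 3L the first bin reaches 23.8%.

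The most covered 1-Mb bin of 2L did not lie at the telomere but between 8 and 9 Mb. It held 150 peaks on 15.6% of its bases, while the bin before it held 43 peaks and the bin after it 80. Its peaks were typical in themselves, with a median width of 591.5 bases and a median score percentile of 48.1. A lower rise stood between 12 and 14 Mb, where 144 peaks lay. Together the stretches from 0 to 3, 8 to 10 and 12 to 14 Mb held 636 peaks, which is 53.1% of the members on 32.6% of the length. These stretches were chosen after their values were seen. Across the 21 full 1-Mb bins, the number of peaks ran from 9 to 150 with a median of 43. Bin medians of width ran from 403 to 748 bases and did not follow the number of peaks closely (Spearman's rho 0.14 over 21 bins, a description).

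The emptiest 1-Mb bin lay between 15 and 16 Mb, with 9 peaks on 1.56% of its bases. It belonged to a stretch from 14890444 to 16141365, or 1251 kb, in which these 9 peaks were all that was called. They formed 4 groups. A pair at 15265801 to 15266482 had scores of 9.07 and 10.3. A lone peak of 7498 bases at 15446075 to 15453572 had a score of 227. A group of 3 peaks from 15586443 to 15593468 had scores of 121, 90.5 and 171. The last group, from 15760178 to 15762566, held 3 peaks with scores of 12.2, 14.2 and 12.2. The sparsest part of the arm thus held 3 peaks that scored 100 or more beside 5 that scored under 15.

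Peak-free gaps of 100 kb or more, called deserts here, took up much of 2L. There were 48, with a summed length of 9.33 Mb or 43.4% of the euchromatin, against 39.9% on 3L (54 deserts), 34.7% on 3R (54) and 59.9% on X (57). The median desert measured 161 kb on 2L, against 137 kb on 3L, 162 kb on 3R and 177 kb on X. Deserts of 200 kb or more numbered 17 and took 23.1% of 2L, against 16.1% of 3L, 10.8% of 3R and 35.7% of X. For both sizes the share of length on 2L lay above those of 3L and 3R and below that of X. Per 10 Mb the number of deserts of 100 kb or more was 22.3 on 2L, against 23.5 on 3L, 20.5 on 3R and 27.2 on X. Whether a desert lacks the mark or lacks reads was not tested, since neither ChIP nor input reads were used.

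Most of the longest deserts of 2L lay in its proximal part, towards the centromere. The longest ran from 16885835 to 17335992, or 450158 bases. The next ran from 18149049 to 18561016, or 411968 bases, and those after it from 15762567 to 16141365 and from 14890444 to 15265800, with 378799 and 375357 bases. Further deserts of over 300 kb ran from 12098933 to 12420778, from 17499609 to 17820010 and from 7550586 to 7859550, and the next longest measured 270626, 266321 and 264267 bases. These 10 made up 3369 kb, or 15.7% of the euchromatin, and 6 of them lay between 12 and 19 Mb. The 5 Mb from 14 to 19 Mb, 23.3% of the length, held 15 of the 48 deserts and 38.9% of the desert length. The dense stretch from 8 to 10 Mb held 2, and the distal 3 Mb held 7, among them 1 of 266321 bases from 2299221 to 2565541.

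Desert edges were not marked by weak peaks alone. The 91 peaks that bordered a desert had a median width of 534 bases, against 550 bases for the other 1107, and a median score percentile of 53.5, against 44.2. Of the bordering peaks 11, or 12.1%, were 4000 bases or wider, against 54, or 4.88%, of the others. At least 1 of the bordering peaks scored 100 or more at 19 of the 48 deserts, where a peak between 2 deserts counts at both. Such scores were held by 18 of the 91 bordering peaks, against 82, or 6.84%, of all 1198 members. Peaks with a desert on both sides numbered 5. They were a peak of 449 bases with a score of 8.21 at 5533094, a peak of 2453 bases with a score of 122 at 7548133, a peak of 242 bases with a score of 9.36 at 14356969, the lone peak of 7498 bases named above, and a peak of 5139 bases with a score of 161 at 17820011.

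Many neighbouring peaks stood close together, though not all outside the deserts did. The gap between neighbouring peaks of 2L had a median of 1478 bases and quartiles of 304 and 10221 bases, against medians of 1213 on 3L, 1287 on 3R and 1283 on X. Of 1197 neighbouring pairs 665, or 55.6%, were under 2000 bases apart, against 56.6% on 3L, 57.2% on 3R and 57.3% on X. Gaps of 10 kb or more made up 25.5% of the pairs on 2L, against 21.9% on 3L, 21.1% on 3R and 21.5% on X. The smallest gap was 51 bases on each arm, and 102 gaps of 2L were 100 bases or less. The upper quartile of gaps, 10221 bases, stood above the 7677, 7611 and 6792 bases of 3L, 3R and X.

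**Figure D3:**
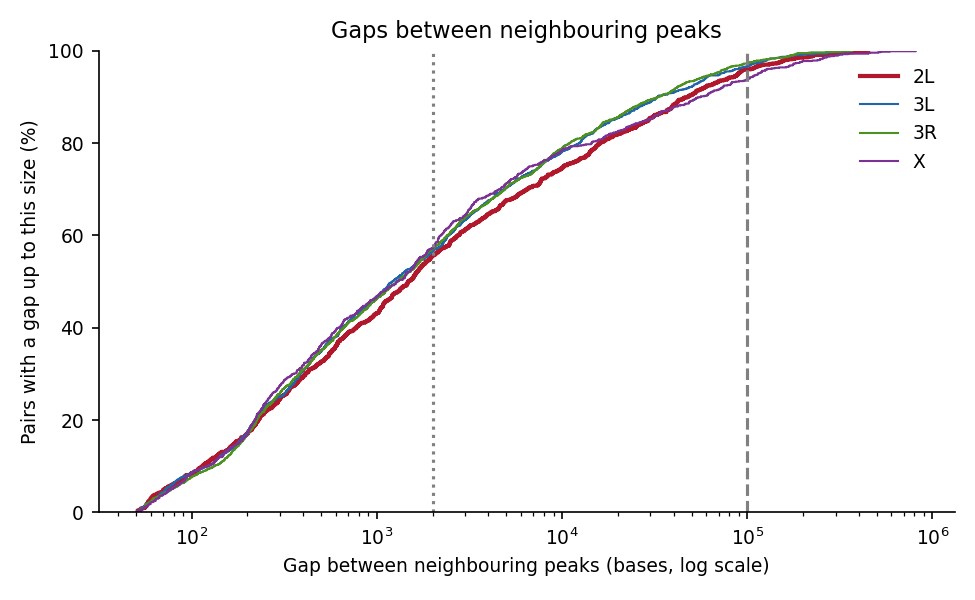
Cumulative share of neighbouring peak pairs (percent) by the gap between them (bases, log axis) on 2L, 3L, 3R and X. The dotted line is at 2000 bases and the dashed line at 100 kb. The arms run together up to 2000 bases, and 2L lies lowest between about 2000 bases and 10 kb.

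Joined at gaps under 2000 bases, the members formed 533 runs. Of these, 250 were single peaks, which made up 20.9% of the members, against 19.6% on 3L, 19.5% on 3R and 20.1% on X. Runs of 5 or more peaks numbered 52 and held 348 members, or 29.0%, against 29.7% on 3L, 32.3% on 3R and 34.2% on X. The run with the most peaks lay from 11052049 to 11064729, with 11 peaks between 200 and 3298 bases wide and a highest score of 39.2. The longest run spanned 25733 bases from 2158004 to 2183736, with 10 peaks over 76.4% of its bases and a highest score of 90.6. It was followed by runs of 20418 bases from 13065989 (9 peaks), 20290 bases from 5284860 (7 peaks), 19859 bases from 122950 (5 peaks) and 18878 bases from 8689200 (8 peaks). Other runs of 10 peaks began at 16265927 and 8090869. Between 70.3% and 86.4% of the bases of the 5 longest runs lay in peaks. That such strings have short gaps follows from the joining rule.

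Neighbours in such strings had loosely similar scores. The correlation of score ranks between neighbouring members was 0.30 for gaps under 500 bases (390 pairs), 0.17 for gaps from 500 to 2000 bases (275 pairs), 0.01 from 2000 to 10000 bases (227 pairs) and 0.01 beyond (305 pairs). Peaks in runs of 5 or more had a median width of 604.5 bases and a median score percentile of 49.2, and peaks alone in their run had 521.5 bases and 40.3. These values are descriptions over peaks, which share their libraries and their local background.

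The median peak of 2L measured 549 bases, and the quartiles of width were 318.5 and 1153 bases. The medians of 3L, 3R and X were 576.5, 608.5 and 642 bases. At the lower limit 21 members had 200 bases, and 259, or 21.6%, had under 300 bases, against 19.5% on 3L, 19.3% on 3R and 20.8% on X. Broad peaks of 4000 bases or more numbered 65. They made up 5.43% of the members and 30.0% of their summed width, against 26.1% of the summed width on 3L, 23.1% on 3R and 28.8% on X. By the median, peaks of 2L were thus the narrowest of the 4 arms. Broad peaks took the largest share of summed width on 2L, with X close to it. As a share of peaks, broad peaks were more frequent on X, at 6.14%, and less so on 3L, at 4.97%, and 3R, at 4.18%.

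The median score was 16.4 on 2L, against 17.9 on 3L, 18.3 on 3R and 18.7 on X, and the median score percentile was 45.6, against 50.2, 51.3 and 52.7. Among the highest-scoring 25% of the list, a list cut on the score itself, the median percentile of 2L was 59.4. That rank was taken among the retained peaks of the 4 arms only, so it is not on the scale of the 45.6. In the full list 74 members, or 6.18%, ranked in the upper 5% of the 4 arms, against 4.04% of peaks on 3L, 4.07% on 3R and 7.10% on X. Scores of 100 or more were held by 82 members, or 6.84%, against 5.71% on 3L, 5.73% on 3R and 10.1% on X. Scores of 200 or more were held by 16 members, or 1.34%, against 0.745% on 3L, 1.11% on 3R and 1.27% on X. The highest score was 274 on 2L, against 403 on 3L, 506 on 3R and 243 on X. Width and score went together, with a Spearman's rho of 0.81 over the members, a description. Median scores by width were 9.96 under 300 bases, 12.5 from 300 to 500, 18.3 from 500 to 1000, 31.5 from 1000 to 2000, 54.1 from 2000 to 4000 and 138 from 4000 bases up.

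The 10 highest-scoring members were nearly all of 1 width. In falling order of score they began at 20303154 (274), 1678992 (264), 12933898 (254), 21347582 (253), 19347512 (250), 10156341 (247), 347886 (243), 4066082 (235), 20576245 (232) and 15446075 (227). The peak at 4066082 was 2801 bases wide, and the other 9 were between 7454 and 7538 bases wide. The widest members were a different set at the very top. A peak of 13178 bases from 494707 had a score of 164, a peak of 9752 bases from 5295398 had 120, a peak of 8960 bases from 132387 had 82.8 and a peak of 7845 bases from 513952 had 92.1. After these 4, the next 6 in width belonged to the set of recurring width.

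In all, 11 members were between 7454 and 7553 bases wide, the 100-base window that holds the most broad members. Earlier results of these data had singled out this width, so its recurrence is given as a description. Their widths ran from 7454 to 7538 bases and their scores from 220 to 274, with a median of 247. The other 54 broad members scored from 34.7 to 216, with a median of 125, so the ranges of score did not overlap on 2L. The 11 peaks accounted for 11 of the 16 members that scored 200 or more. The same window held 3 peaks on 3L, with scores from 213 to 243, 4 on 3R, with scores from 226 to 269, and 0 on X. On 3L and 3R other broad peaks scored higher, up to 403 and 506, so the ranges overlapped there. The window was chosen as the fullest on 2L, so its larger count on 2L is no comparison of arms. Apart from windows that overlap it, the fullest held 7 peaks on 2L (from 5189 bases), 8 on 3L (from 4934), 6 on 3R (from 4524) and 6 on X (from 5163).

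These peaks of recurring width stood apart from others. Of the 11, 10 were the only peak in their run, against 14 of the other 54 broad members. The gap to the nearest peak had a median of 30476 bases and ran from 1755 to 132870 bases, while the median over the other broad members was 616.5 bases. The exception at 1755 bases was the peak from 1678992 to 1686529. The remaining 2, from 1220153 to 1227645 and from 11713538 to 11721026, had scores of 220 and 226. The set was scattered along the arm, with 3 members in the distal 3 Mb, 0 between 3 and 10 Mb and 8 beyond. Standing alone was not particular to 2L. In the same width window, all 3 peaks on 3L and all 4 on 3R were the only peak in their run. Among other broad peaks this held for 13 of 77 on 3L and 17 of 79 on 3R.

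**Figure D4:**
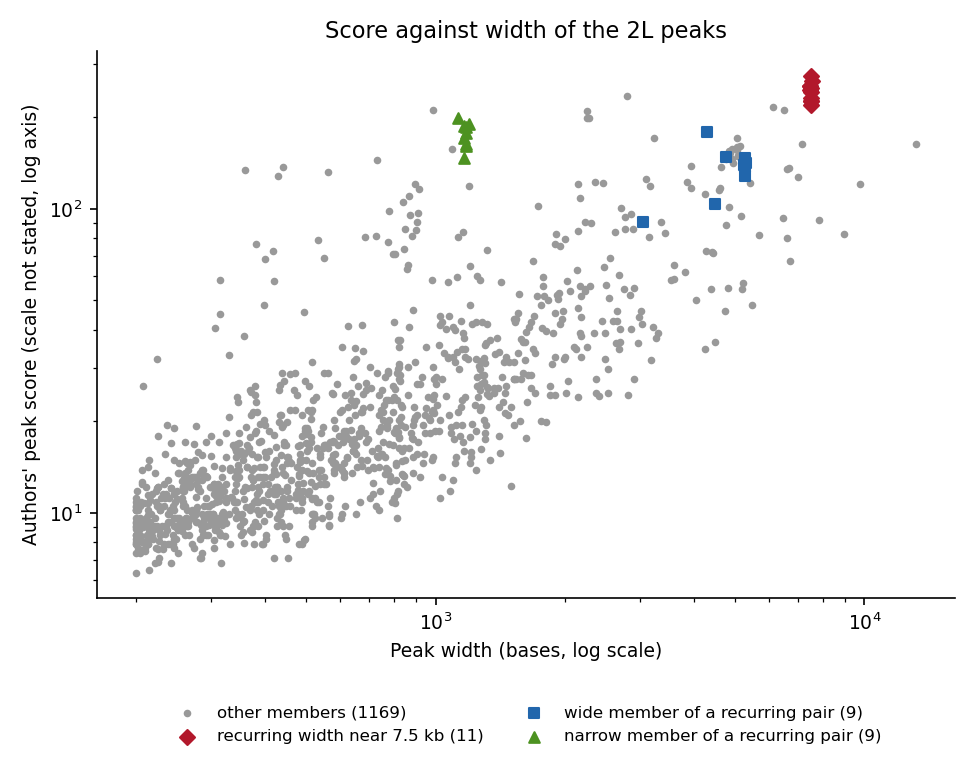
Authors' peak score (scale not stated, log axis) against peak width (bases, log axis) for the 1198 peaks of the 2L euchromatin. Diamonds mark the 11 peaks of recurring width, triangles and squares the narrow and the wide members of 9 recurring pairs. The diamonds, at scores of 220 to 274, share 1 width at the top of the plot, and the triangles lie at scores of 147 to 199, a position that the score limit of the pair rule partly sets.

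A recurring arrangement of peaks was also found, chosen after the values were seen. It joined a narrow peak of 1100 to 1200 bases that scored 100 or more with a wider neighbour across a gap of 550 to 700 bases. On 2L 9 such pairs were present. Their narrow peaks were between 1130 and 1197 bases wide and scored from 147 to 199. The rule asked for a score of 100 or more, so a high score is no finding about them. Of the 37 members of 1100 to 1200 bases, 10 scored 100 or more, and 9 of these 10 had a neighbour across such a gap. The gaps ran from 553 to 656 bases with a median of 612. The wide peaks were between 3052 and 5286 bases wide and scored from 90.5 to 178. In 8 of the 9 pairs the narrow peak scored higher than the wide one, the exception being the pair from 2565542 to 2571613 with scores of 147 and 178. The rule set a score limit for the narrow peak only, so this order is partly set by the rule.

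Several of these pairs had almost the same dimensions. The rule itself limited the narrow width and the gap, so likeness in these is partly set by it, and only the wide width was free. The pair from 10876562 to 10883611 had a wide peak of 5266 bases, a gap of 619 bases and a narrow peak of 1165 bases, a span of 7050 bases. The pair from 12067354 to 12074402 had 5255, 618 and 1176 bases, a span of 7049 bases. The pair from 8594497 to 8601547 had the reverse order, with the narrow peak of 1177 bases first, a gap of 615 bases and a wide peak of 5259 bases, a span of 7051 bases. The wide peak came first in 7 of the 9 pairs. A further pair, from 19147356 to 19154445, spanned 7090 bases. In 2 pairs the wide peak was followed or preceded within 100 bases by another peak, and with it the spans were 7026 bases (from 15586443, in the sparse stretch) and 7050 bases (from 16153777). Without such neighbours 4 of the 9 spans lay between 7000 and 7100 bases, and with them added 6 did. The others were 6929 bases (from 7977106), 6591 bases (from 2772608) and 6072 bases (from 2565542).

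The same search found 2 pairs on 3L, 2 on 3R and 3 on X. Their spans were 7034 and 7086 bases on 3L, 6936 and 7036 bases on 3R, and 7018, 7027 and 7046 bases on X. Narrow peaks within the width and score limits, paired or not, numbered 4, 5 and 5 on 3L, 3R and X, against 10 on 2L. The limits were chosen after the values were seen, so the larger count of pairs on 2L is no comparison of arms. A second arrangement, a peak of 400 to 450 bases scoring 100 or more next to a peak of at least 6000 bases across a gap of 250 to 350 bases, occurred in 2 places on 2L. The narrow peak came first in both, with 442 and 6660 bases across 269 bases from 3202739 and with 430 and 6600 bases across 312 bases from 4601731. It occurred in 1 place on 3L and 1 on 3R, with spans of 7245 and 7302 bases, against 7371 and 7342 bases on 2L. What sequence lies under any of these peaks was not analysed here. Whether the scores count reads that align to more than 1 locus is not known from the list.

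**Figure D5:**
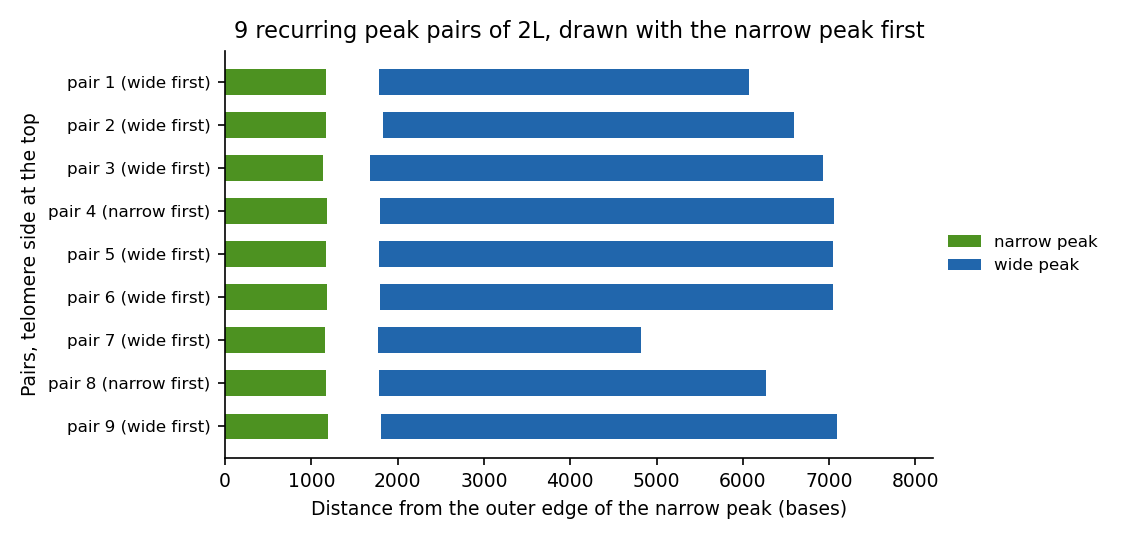
The 9 recurring pairs of 2L, one per row, drawn to scale from the outer edge of the narrow peak (bases), with pairs in which the narrow peak comes second turned round. Narrow peaks of 1130 to 1197 bases (green) stand before gaps of 553 to 656 bases and wide peaks of 3052 to 5286 bases (blue).

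High scores on narrow peaks were rare otherwise. Of the 855 members under 1000 bases wide, 10 scored 100 or more. The highest was a peak of 988 bases from 21041179 with a score of 212, in a run of 3. A peak of 359 bases from 1301933, with no other peak within 70092 bases, had a score of 134, and a peak of 560 bases from 18664628 had a score of 132. The narrow members of the second arrangement, with scores of 138 and 128, were also among the 10.

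Some peaks of 2L lay far from any other. A gap of 10 kb or more on both sides was found for 103 members, or 8.60%, against 5.84% of peaks on 3L, 5.89% on 3R and 7.31% on X. Among broad members 15 of 65, or 23.1%, were isolated in this sense, and their median score was 226, against 119 for the other 50. On the other arms 3.75% of broad peaks on 3L, 18.1% on 3R and 15.5% on X were isolated. In narrower classes of 2L the isolated members had no steady direction. Their median score was 9.66 against 9.96 for the others under 300 bases (18 and 241 members), 12.8 against 12.5 from 300 to 500 (30 and 261), and 17.1 against 18.3 from 500 to 1000 (25 and 280). It was 21.1 against 31.8 from 1000 to 2000 (9 and 181) and 64.1 against 54.1 from 2000 to 4000 bases (6 and 82). The isolated broad members included 9 of the 11 peaks of recurring width.

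The limit at base 21500000 cut through a row of small peaks. From 21419261 to 21572824 neighbouring peaks were less than 10 kb apart, and this stretch of 154 kb held 51 peaks, 26 inside the limit and 25 outside. Inside, the median width was 386.5 bases and the median score 12.5. Outside, they were 331 bases and 11.8. The last 3 members ended at 21497226, 21497540 and 21499541, with scores of 13.1, 12.1 and 12.3. The first 3 peaks left out began at 21502070, 21504063 and 21505165, with scores of 18.4, 11.6 and 12.8. With this row, the last 0.5 Mb of the euchromatin held 53 peaks, or 106 per Mb, on 8.31% of its bases. The first Mb at the telomere held 102 peaks on 15.5%. Beyond the limit lay 67 peaks of 2L.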

How the data were processed

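The 1 deposited peak list is on FlyBase release 5, per the file headers, and its source column names MACS. The submitters' processing notes name CASAVA 1.7.0.2 and 1.7.0.3, BWA, MACS2 and BDGP5, without roles. The threshold for calling, the pooling of libraries and the handling of multiply aligned reads were not given in the sources used here. Each peak has a score that the authors deposited, whose scale is not stated, so it was ranked within this list only. The other values the authors deposited are each peak's start and end, used as such. Starts were taken to count from 0, positions printed count from 1, and width is end minus start.

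Values were computed with pandas 2.3.3, numpy 2.4.6 and scipy 1.17.1 under Python 3.11.15, and drawn with matplotlib 3.10.9. Blocks of 100 kb were laid from the telomeric end, and incomplete last blocks were dropped. Percentiles are mid-ranks. The members and lists were chosen with earlier results of these data known. Named regions are the 10 highest and widest peaks, the 10 longest gaps, the leading runs and blocks, the peaks at the telomere and at the limit, and the recurring width. All other stretches, peaks and arrangements in the text were picked with their values in view. The procedures were tested on simulated data. Alternatives were stricter scores, widths of 300 bases or more, joined peaks, and other limits, blocks, windows and gaps.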

Additional observations from a re-analysis of the deposited data

How the results depend on the processing

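Of 46 repeats under other settings, 13 stayed inside the 95% binomial interval of the value reported, 33 moved and 0 reversed. This tally does not measure stability. The intervals treat bases or peaks as independent, block size cannot change a mean over whole blocks, joining close peaks cannot change deserts, and other gaps, windows or percentile pools redefine the quantity. Stricter lists are smaller by construction. With a score at or above the median of the list (412 members), coverage was 4.16%, distal minus rest 4.88 points, the desert share 71.0%, the median width 1522 bases and close neighbours 32.4%. Among the highest-scoring 25% (154 members) they were 2.37%, 2.97 points, 87.7%, 2740.5 bases and 16.3%. The median score percentile there was 59.4, ranked among the retained peaks of the 4 arms only. Without peaks under 300 bases they were 5.62%, 5.49 points, 47.5%, 757 bases and 48.2%. With peaks less than 500 bases apart joined, coverage was 6.29%, distal minus rest 5.88 points, the median width 894.5 bases and close neighbours 34.1%. With the limit 1 Mb lower, coverage was 5.82%, distal minus rest 5.85 points and the desert share 45.0%, and with it 1 Mb higher 5.83%, 5.74 points and 43.9%. Distal minus rest was 10.0 points for the distal 1 Mb and 2.96 for 5 Mb. Gaps of 50 kb or more took 65.4% of the arm and those of 200 kb or more 23.1%. Neighbours under 1000 bases apart were 43.2% and under 5000 bases 67.6%. Among the whole list the median score percentile was 35.2. No paired analysis was possible because values per library were not used here, and no replicate could be left out. Read depth was not analysed here.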
